A study of Mus musculus with 4 samples.

Results

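Of 93503 regions of open chromatin found in mouse CD4+ T cells, 653 carried a peak in both cultures that had no IL-4 and in neither culture that had it. These regions, called only without IL-4, were chosen by the peak calls themselves. Peaks of the 4 lists that shared at least 1 base were merged into regions on the assembled chromosomes, and each region was sorted by which lists held a peak in it. The 653 regions made up 0.698% of the merged regions, the 2435 regions of the opposite pattern made up 2.6%, and 47710 regions were called in every library. Leaving out 1 library loosens the rule, so the number of regions could only rise. It was 1350 without replicate 2 with IL-4 and 2775 without replicate 1 with IL-4. It was 2818 without replicate 1 without IL-4 and 7507 without replicate 2 without IL-4, whose list was the shortest. With all 4 libraries it was 738 from lists of equal length, 804 with a reciprocal overlap of 50% and 131 from the upper 50% of each list. Since the calls made the choice, the peak values of the members are given as a description and no test is attached to them.

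The chromatin came from the spleen of male WT C57BL/6 mice 7 weeks old, from which CD4+ cells of naive surface type (high for CD62L, low for CD44, CD25-) were sorted. All cells were activated for 48 h by antibodies, anti-CD3 fixed to the plate at 5 µg/ml and anti-CD28 in solution at 1 µg/ml, in human TGF-β1 (5 ng/ml) and mouse IL-2 (10 ng/ml), and 1 group also received mouse IL-4 (15 ng/ml). Each group had 2 libraries of 50000 cells, which the study describes as independent pooled samples. With 2 libraries against 2, no two-sided permutation test can go below p = 0.33.

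ATAC-seq uses a transposase that cuts and tags DNA where nucleosomes leave it exposed, so that a pile of tagged fragments, a peak, marks open chromatin such as a promoter or an enhancer. TGF-β with IL-2 drives activated naive T cells toward Foxp3-expressing regulatory T cells (Treg). In Th2 differentiation, IL-4 acts through its receptor and the transcription factor STAT6. Both groups here had TGF-β1. When IL-4 was added to such cultures, the paper reports less Foxp3 mRNA, more Gata3 and Il9 mRNA and no significant change in Il4. A list with no peak at a place says only that the caller's threshold was not reached there.

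Each peak came with a −log10 q (the strength of the call, larger being stronger) and a height in overlapping fragments that was not scaled between libraries. The 4 lists held 56645 to 78670 peaks, fewest in replicate 2 without IL-4, and read numbers were not in the lists, so depth was unknown. Every one of 8 T cell genes had a peak within 1 kb of a start site in all libraries, against 7 of 25 genes of other lineages, and 13 of those 25 had none in any library. The mixture is that of whole cultures, so a smaller share of cells with an open region and a region less open in every cell cannot be told apart.

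Sequences of 8 members are shown here from the forward strand of GRCm38 (mm10). They are the members ranked 2 and 3 in the weaker library, shown as strong members of the set, and the best placed member of 6 of the gene lists used below, shown to place the set beside T cell genes. Each is printed whole or as the 300 bases around its centre. Capitals mark matches to any of the 24 motifs searched on both strands, whose letters are given further on; a match is a description and not a binding site.
Gm48099 intron, chr14:19277980-19278279: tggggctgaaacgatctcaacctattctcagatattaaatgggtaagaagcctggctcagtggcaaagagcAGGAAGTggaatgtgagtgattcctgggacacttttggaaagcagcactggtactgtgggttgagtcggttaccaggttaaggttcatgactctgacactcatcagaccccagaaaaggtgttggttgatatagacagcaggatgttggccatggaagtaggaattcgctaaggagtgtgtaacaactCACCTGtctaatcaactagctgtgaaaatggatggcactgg
Tango2 intron, chr16:18345319-18345479: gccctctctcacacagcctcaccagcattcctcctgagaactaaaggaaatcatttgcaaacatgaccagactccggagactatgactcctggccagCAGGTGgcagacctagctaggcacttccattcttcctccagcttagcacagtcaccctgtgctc
Il21 upstream, chr3:37271321-37271599: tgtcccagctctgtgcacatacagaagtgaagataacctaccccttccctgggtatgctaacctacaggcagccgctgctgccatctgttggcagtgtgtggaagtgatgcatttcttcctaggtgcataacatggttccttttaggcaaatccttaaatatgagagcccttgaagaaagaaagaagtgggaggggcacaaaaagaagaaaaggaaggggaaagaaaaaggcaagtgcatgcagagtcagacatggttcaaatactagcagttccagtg
Lat downstream, chr7:126345572-126345844: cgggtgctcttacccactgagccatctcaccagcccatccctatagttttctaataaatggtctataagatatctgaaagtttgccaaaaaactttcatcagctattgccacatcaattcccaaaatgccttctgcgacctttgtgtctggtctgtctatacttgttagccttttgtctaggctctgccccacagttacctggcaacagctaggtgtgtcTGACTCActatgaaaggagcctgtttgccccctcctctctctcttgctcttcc
Il4ra upstream, chr7:125541946-125542245: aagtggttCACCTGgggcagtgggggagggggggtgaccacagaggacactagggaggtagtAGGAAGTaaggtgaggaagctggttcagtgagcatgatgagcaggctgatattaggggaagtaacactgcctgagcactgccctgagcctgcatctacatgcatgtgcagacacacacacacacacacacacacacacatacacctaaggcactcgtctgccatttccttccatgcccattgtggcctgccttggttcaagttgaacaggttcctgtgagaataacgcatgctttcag
Dapl1 downstream, chr2:59513554-59513853: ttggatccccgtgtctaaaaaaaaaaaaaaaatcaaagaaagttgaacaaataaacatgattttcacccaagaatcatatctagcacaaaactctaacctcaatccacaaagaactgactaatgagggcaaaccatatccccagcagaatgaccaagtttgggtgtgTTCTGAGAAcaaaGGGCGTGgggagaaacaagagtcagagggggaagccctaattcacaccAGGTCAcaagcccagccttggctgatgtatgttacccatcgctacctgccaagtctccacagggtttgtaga
Cd96 intron, chr16:46107520-46107722: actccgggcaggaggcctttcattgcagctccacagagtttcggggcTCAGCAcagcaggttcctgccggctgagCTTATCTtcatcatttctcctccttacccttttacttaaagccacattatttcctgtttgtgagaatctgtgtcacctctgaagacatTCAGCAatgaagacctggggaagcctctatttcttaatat
Myb upstream, chr10:21200398-21200562: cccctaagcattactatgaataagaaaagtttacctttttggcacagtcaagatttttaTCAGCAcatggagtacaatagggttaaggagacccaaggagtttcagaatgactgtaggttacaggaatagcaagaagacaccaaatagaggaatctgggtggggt

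The strongest member by a wide margin lay in an intron of Dop1b, and its nearest coding start site is that of Morc3 at 42882 bases. It had −log10 q of 145 and 143 and heights of 167 and 141 in replicates 1 and 2 without IL-4. Of its bases, 86.7% were soft-masked (marked as repeats in the genome sequence), and the exact 32-base words of its central 200 bases lay at a median of 1772 places in the genome. A peak with IL-4 lay 1651 bases away.

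The members were mostly weak peaks. In replicate 1 without IL-4 their −log10 q ran from 1.44 through a median of 5.85 to 145, where the median of all 77064 peaks was 25.1. In replicate 2 they ran from 1.35 through 4.26 to 143, where the median of all 56645 peaks was 15.2. Heights had medians of 21 (12 to 167) and 14 (9 to 141), against 53 and 32 for all peaks.

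Ranked within each list, the median member had 87.1% of peaks above it in replicate 1 and 87.5% in replicate 2. Taking for each member the library where it ranked lower, the median was 92.8% (quartiles 85.7% and 97.01%), against 87.2% for regions called only with IL-4. Only 6 of 653 members stood in the upper 50% of both lists, 62 in the upper 75% and 264 in the upper 90%. The −log10 q was higher in replicate 2 in 196 members, although all but 34 had the lower or an equal height there.

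**Figure D1:**
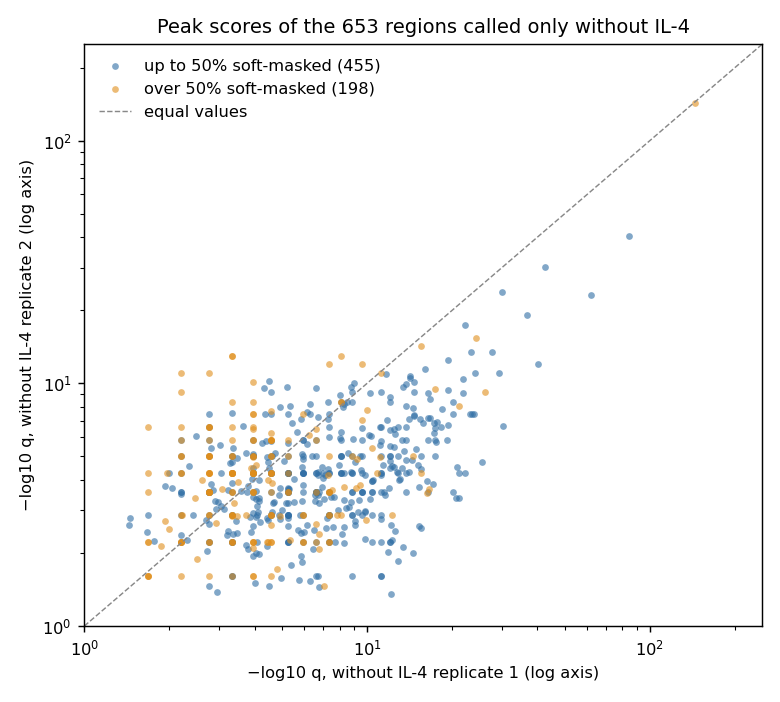
Peak strength (−log10 q) of each of the 653 members in replicate 1 (horizontal) and replicate 2 (vertical) without IL-4, both on log axes, coloured by whether over 50% of the bases were soft-masked. Most points lie in the lower left, with medians of 5.85 and 4.26, and the repeat-rich member in the Dop1b intron lies alone at the upper right.

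At the edge of the rule, the member with the lowest −log10 q in either library lay 27155 bases upstream of Setd7, which encodes a lysine methyltransferase, with 12.2 in replicate 1 and 1.35 in replicate 2. Just outside, a region near Ubxn8 had 3.42 and 2.65 without IL-4 and missed the choice through a peak of 1.45 in replicate 2 with IL-4. Regions near Slc22a26 and D3Ertd751e missed it through peaks of 1.51 each in replicate 1 with IL-4. Of 51154 regions called in both libraries without IL-4, 653 (1.28%) had no peak with IL-4, 2791 (5.46%) had 1, and 47710 (93.3%) had both. Among the 2791, the IL-4 peak had a median −log10 q of 8.43.

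The members were narrower than most regions. Their median width was 304 bases (157 to 1020), against 317 for regions called only with IL-4, 457 for all merged regions and 688 for regions called in every library. Among the 131 regions found with the upper 50% of each list the median was 518, above the 457, which was taken over the full lists. The pair of peaks behind a member usually coincided. The shared bases covered a median of 98.8% of the narrower peak, and peak centres were a median of 40.5 bases apart. In 61 members (9.34%) the overlap was under 50% of the narrower peak, against 3.61% of the regions called only with IL-4. The smallest overlap was 2 bases.

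Few members lay at promoters. Within 1 kb of an annotated start site lay 63 members (9.65%, 95% interval 7.61 to 12.2, Wilson), against 19.4% of all merged regions, 29.8% of regions called in every library and 8.01% of those called only with IL-4. With the upper 50% of each list it was 16.0% of 131 regions (10.7 to 23.3), an interval that holds the 19.4%. Introns held 295 (45.2%, 41.4 to 49.0), where the same share was 44.9% in all merged regions and 55.5% in regions called only with IL-4. Intergenic sequence held 271 (41.5%, 37.8 to 45.3), against 31.5% and 31.7% in those sets. The remaining 24 (3.68%) were in exons, 14 of them coding, 7 untranslated and 3 of noncoding genes. These intervals cover counting error only, since regions of 1 library are not replicates.

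**Figure D2:**
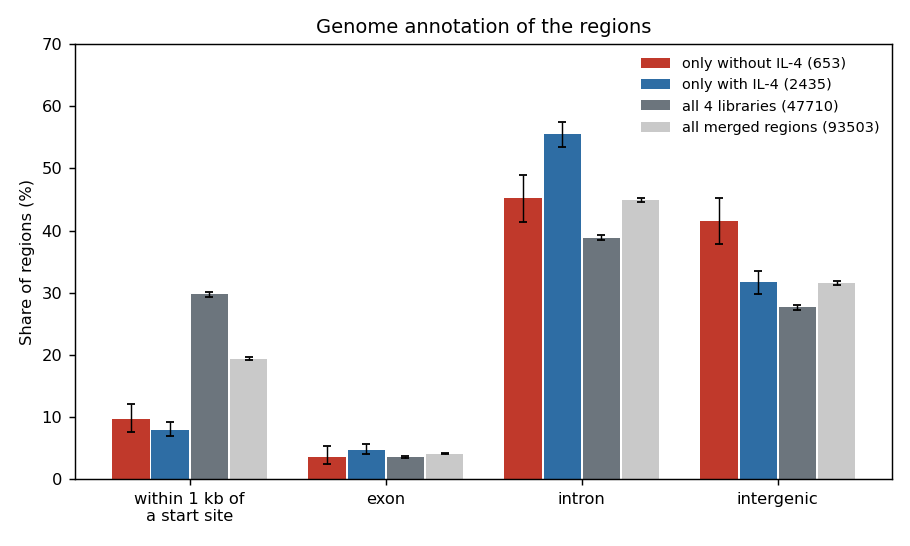
Share of regions (%) by the annotation at the region centre, for members, regions called only with IL-4, regions called in all 4 libraries and all merged regions; bars show shares and error bars 95% Wilson intervals. Promoter shares were 9.65% in members and 29.8% in regions called in all 4 libraries.

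The median member centre was 25951 bases from the nearest coding start site, against 22670 for regions called only with IL-4 and 13072 for regions called in every library. Within 50 kb of a coding start site lay 448 members (68.6%). GC content had a median of 49%, against 47% and 51% in those sets. Chromosome X held 24 members (3.68%, 2.48 to 5.41), where it held 2.18% of all merged regions, and 17 of those 24 were repeats as defined next.

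Repeat sequence was common among the members and among the regions nearest to them in pattern. A region was called a repeat where over 50% of its bases were soft-masked. Repeats numbered 198 (30.3%, 26.9 to 34.0), against 10.7% of regions called only with IL-4, 6.69% of regions called in every library and 11.5% of all merged regions. Regions called in both libraries without IL-4 and in 1 with IL-4 had a similar share, 30.2% of 2791 (32.1% of the 2098 that shared a peak with replicate 1 and 24.5% of the 693 that shared one with replicate 2), so the share was not particular to the members. By another measure, the exact 32-base words of the central 200 bases lay at 2 or more places in the genome for 169 members (25.9%, 22.7 to 29.4), against 7.19%, 6.78% and 9.66%. In 107 members (16.4%) they lay at 10 or more places.

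The repeat share went with width. It was 19.4% of the 62 members up to 200 bases wide, 20.1% of the next 254 up to 300 bases, 26.9% of 160 up to 400 bases, 40.9% of 115 up to 600 bases and 72.6% (60.4 to 82.1) of the 62 over 600 bases. Over 600 bases wide the share was 11.3% among regions called only with IL-4, but 64.6% of 616 and 51.7% of 120 among regions called in both libraries without IL-4 and in replicate 1 or replicate 2 with it. Of the 62 widest members, 41 were at several places, and −log10 q was higher in replicate 2 in 50, with medians of 3.34 in replicate 1 and 5.04 in replicate 2. The 3 widest lay in an intron of Emc2, which encodes a subunit of the ER membrane complex (1020 bases), near Gm4846 (966 bases) and near Pcdh7, a protocadherin (965 bases).

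**Figure D3:**
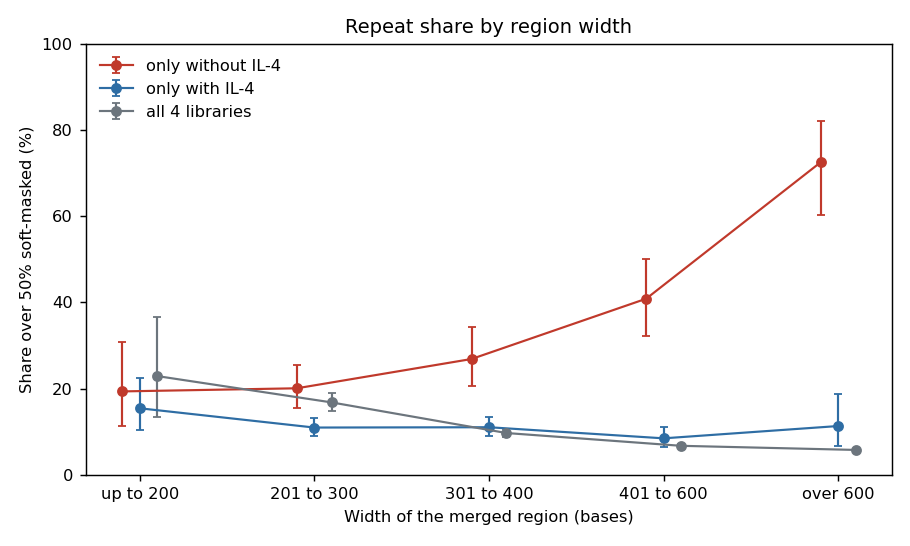
Share of regions over 50% soft-masked (%) by width of the merged region, for members, regions called only with IL-4 and regions called in all 4 libraries, with 95% Wilson intervals as error bars. The share in members reaches 72.6% above 600 bases, where regions called only with IL-4 are at 11.3%; regions called in 3 libraries are not drawn.

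One library moved with these values. Regions called in replicate 2 without IL-4 and in no other library were repeats in 37.5% of 2105 cases, while regions called in just 1 of the other libraries were repeats in 16.1% to 18.8%. Over 600 bases wide the values were 88.1% of 84 and 42.2% to 47.2%. Called on replicate 2 alone (no peak with IL-4, replicate 1 left out), the pattern had 2818 regions and a repeat share of 35.5%; on replicate 1 alone it had 7507 and 17.98%. Of all peaks, 10.6% were repeats in replicate 2 and 9.84% in replicate 1 without IL-4, against 9.94% and 8.50% with IL-4. The part of this library in the members' repeat share was not tested.

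Repeat members were weaker in replicate 1 and lay further from peaks with IL-4. Their median −log10 q was 3.95 and 4.09 in the libraries without IL-4, against 6.70 and 4.28 in the 455 other members. Their median distance to a peak with IL-4 was 15860 bases, against 3206. Of the 85 members more than 50 kb from any peak with IL-4, 66 were repeats. Where reads could not be placed at 1 position, the deposited lists do not say how they were assigned.

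Many members had peaks called with IL-4 close by. The nearest peak in either library with IL-4 was within 200 bases of 19 members, within 1 kb of 118 (18.1%, 15.3 to 21.2) and within 5 kb of 352, with a median distance of 4368 bases. Of the 118 within 1 kb, 27 were at promoters and 15 were repeats.

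The 12 members with the best rank in the weaker library lay at 12 different loci. After the Dop1b intron came a member in an intron of the noncoding gene Gm48099, with −log10 q of 84.1 and 40.6 and heights of 90 and 47 in replicates 1 and 2 without IL-4. No peak with IL-4 was called within 137440 bases of it. It was 7.24% soft-masked and lay at a single place by the 32-base words.

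A member in an intron of Tango2 followed, with 42.5 and 30.2 and heights of 140 and 80. At that gene, peaks on both sides were called in all 4 libraries, the nearer one with heights of 564 and 258 without IL-4, and of 539 and 466 in the cultures given it. The member between them had no peak with IL-4. Next were an intergenic member near Iqub (61.8 and 23.1) and one in an intron of Pacs1, nearest to Klc2, a kinesin light chain (36.9 and 19.2).

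The sixth lay 38842 bases upstream of Il21, which encodes a cytokine made by follicular helper and Th17 cells. Its −log10 q was 30.1 and 23.7, with heights of 93 and 55, and it had no peak in either library with IL-4. A neighbouring region 752 bases away was called in every library, with −log10 q of 132 and 38.6 without IL-4, and of 142 and 93.4 in the cultures given it. The neighbour was thus called in both conditions and the member in 1.

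The other 6 of the 12 had −log10 q of 12.03 to 40.2. They lay at the start of the small noncoding gene Gm24230 near Nod1, a sensor of bacterial cell walls; in introns of Gramd1b and Tmem79; in coding exons of Fbxo34 and Svep1; and 8559 bases upstream of Wnt6, a secreted signalling ligand. Beyond the Dop1b intron, only the member near Nod1 among the 12 was over 50% soft-masked (53.9%).

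**Figure D4:**
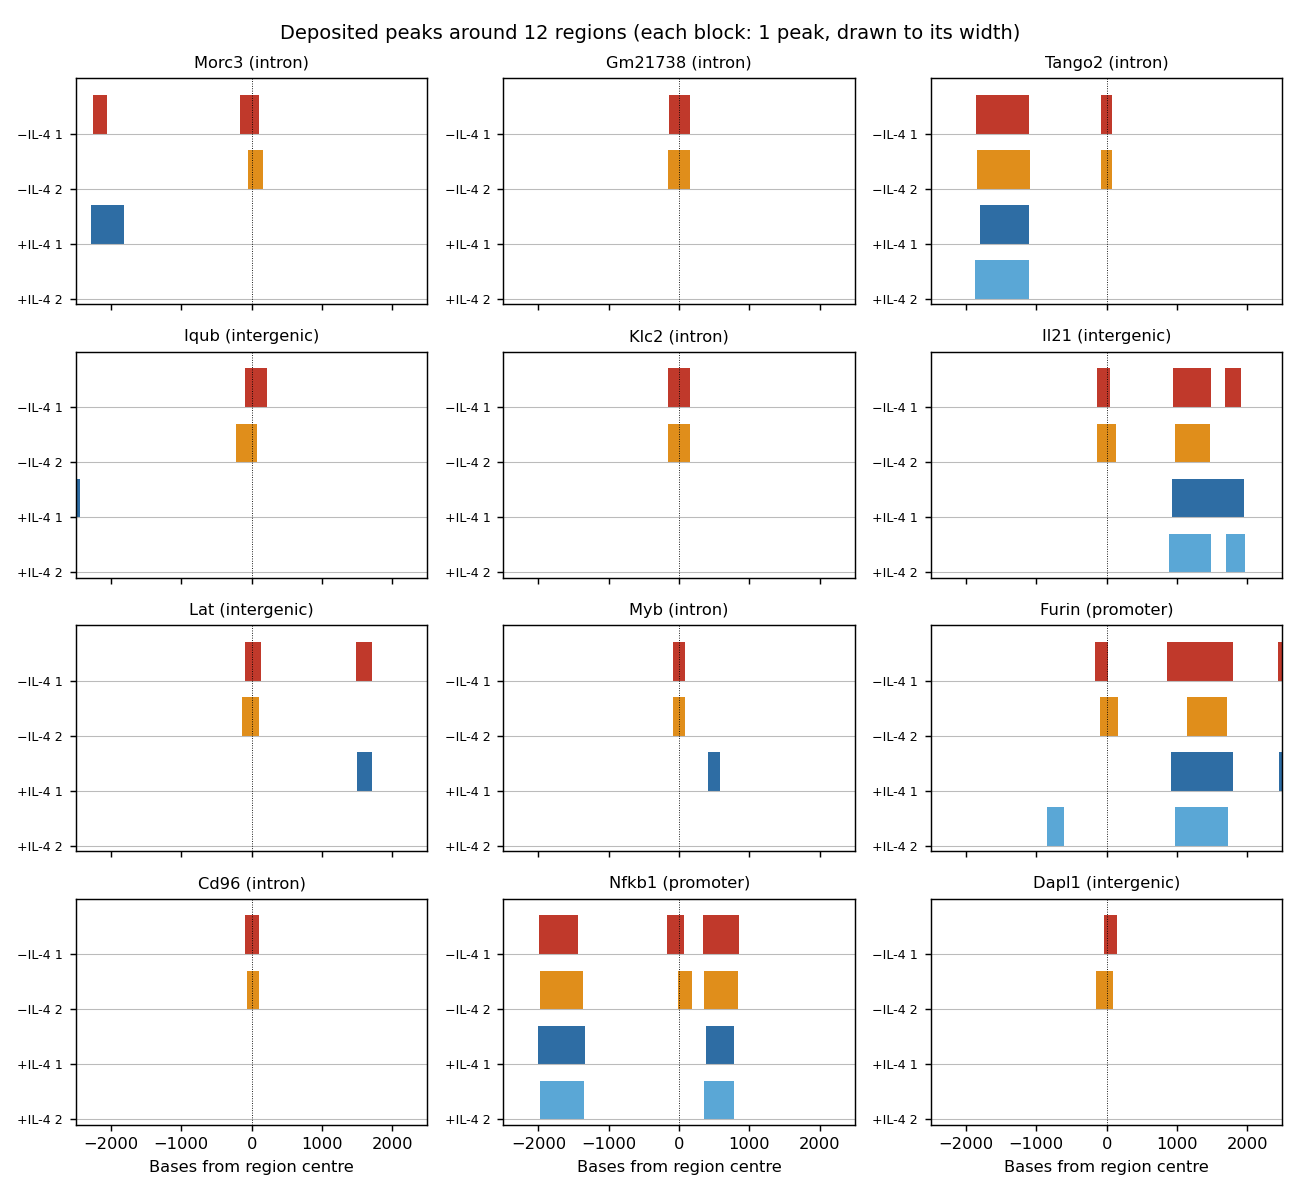
Peaks of the 4 libraries around the centre of 12 members, named by the nearest coding gene (the member labelled Morc3 lies in an intron of Dop1b); each block is 1 deposited peak drawn to its width, with libraries without IL-4 in the upper rows and with IL-4 in the lower ones. Within view, blocks called in all 4 libraries stand on both sides of the member near Nfkb1 and on 1 side of those near Tango2, Il21 and Furin.

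To place the members by gene, each was assigned to the nearest coding start site. They fell on 635 genes, 2.91% of 21827 coding genes, of which 619 had 1 member, 14 had 2 and 2 had 3. Of the 635, 553 were also nearest to a region called in every library and 138 to a region called only with IL-4. Of all 21827 coding genes, 15351 were nearest to a region called in every library and 2041 (9.35%) to one called only with IL-4. Of 272 genes in 11 lists for T cell and control functions, 23 (8.46%) had a member, and 78 (28.7%) had a region called only with IL-4. The 23 became 7 with the upper 50% of each list. In the larger sets with 1 library left out they became 41 without replicate 2 with IL-4 and 78 without replicate 1 with IL-4. They became 68 without replicate 1 without IL-4 and 148 without replicate 2 without IL-4. The counts per list below thus hold for the 653 members only. Per region, 25 members (3.83%, 2.61 to 5.59) had a listed gene nearest, against 4.58% of all merged regions and 4.68% of those called only with IL-4, so the share near listed genes was close to the background.

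Among 28 Treg genes, 3 had a member and 7 had a region called only with IL-4. The member at Gpr15, a receptor that guides T cells to the colon, lay 270 bases downstream of its start site, with −log10 q of 14.1 and 4.32 and heights of 45 and 17. One lay 9712 bases upstream of Icos, a costimulatory receptor, with 16.6 and 3.66 and 69.7% of its bases soft-masked. One lay 41081 bases downstream of the start of Lrrc32, which encodes the GARP protein that holds latent TGF-β on Treg, with 8.28 and 2.198. In replicate 2 without IL-4, 98.5% of peaks ranked above it, and a region called in every library was 205 bases away. The member nearest to Foxp3 was 879690 bases from a start site of it, in repeat sequence near Dgkk on chromosome X.

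Of 25 genes of the TGF-β pathway, 3 had a member and 9 had a region called only with IL-4. At Furin, the protease that processes the TGF-β precursor, it lay 152 bases upstream of a start site, with −log10 q of 8.26 and 8.24 and heights of 86 and 46. A larger peak of that locus was called in all 4 libraries with heights of 519 and 172 without IL-4, and of 455 and 323 in the cultures given it. A member in an intron of Smad4, the shared mediator of the pathway, had 8.41 and 3.06. One in the untranslated last exon of Tgfbr2, a receptor chain, had 4.92 and 2.75.

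T cell receptor and activation genes, the longest list, held the most members, 10 at 8 of 48 genes (Cd28, Cd44, Egr3, Lat, Myc, Nfatc1, Nfkb1 and Pdcd1). Of the 48, 18 had a region called only with IL-4 and all 48 had a region called in every library. The best placed lay 23826 bases downstream of the start of Lat, an adaptor that couples the receptor to signalling, with −log10 q of 21.8 and 10.4 and heights of 69 and 30. At Nfkb1, the precursor of the NF-κB p50 subunit, the member lay 591 bases downstream of the start site with 8.53 and 5.14, and a region called in every library began 169 bases away. Members nearest to Cd28, the costimulatory receptor, numbered 2, at 35493 and 75216 bases downstream of its start, with 6.31 and 7.46 for the first and 7.06 and 3.34 for the second. Myc, a growth regulator, also had 2, at 731497 and 817169 bases, with no nearer coding start site.

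For the Th2 and IL-4 pathway, 1 of 27 genes had a member and 7 had a region called only with IL-4. The member lay 10024 bases upstream of Il4ra, which encodes the IL-4 receptor α chain, with −log10 q of 5.50 and 4.03 and heights of 32 and 17. A region called in every library was 791 bases from it. Il21 was the only gene with a member of 16 for Th17, and none of 20 Th1 and cytotoxic genes had one. Regions called only with IL-4 were nearest to 2 and 5 genes of these lists.

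In the remaining lists, Btg1 and Dapl1 had a member among 25 genes of naive and quiescent cells. Sirt1, a NAD-dependent deacetylase, was the only 1 of 18 histone deacetylase and sirtuin genes, through a member 926 bases wide in its intron with 4.04 and 4.60. Cd96 and Itgb3 had one among 25 chemokine receptor and adhesion genes, and Ikzf1 and Myb among 15 of the Ikaros and Runx list. The member in the intron of Ikzf1, the Ikaros transcription factor, had 25.5 and 4.73. None of 25 genes of other lineages had a member. In the order given, 14, 2, 5, 6 and 3 genes of these lists had a region called only with IL-4.

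Genes with several members were few. Tiam1, an activator of the GTPase Rac, had 3 members in its introns, with −log10 q of 3.05 to 9.57 over both libraries, and 20 regions called in every library. Pcdh7 had 3 members, at 776667 to 2018894 bases from its start site, all of them repeats. Dad1 had 2, both within the T cell receptor α locus, near the variable segments Trav14-3 and Trav17. Abcc4, Fam174a, Mtmr12, Cd28, Faxc, Myc and Klf13 also had 2 each.

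Finally, 24 transcription factor motifs were searched in the 200 bases around each centre, and each share was set beside that of all merged regions. Over 8 other ways of choosing the regions (the upper 50% of each list, lists of equal length, a reciprocal overlap, each library left out, members at a single place), 18 of the 24 motifs lay on the other side of the share in all merged regions at least once. The other 6 were below it in the members and in all 8, namely the SP GC box, the STAT6-type motif, ETS, KLF/SP, GATA and NRF1. The 8 share regions and libraries, and those with a library left out hold mostly regions outside the members. For ETS, KLF/SP, GATA and NRF1 the 95% interval of the members held the share in all merged regions, so these 4 were near the background. The SP GC box (GGGGCGGGG) matched in 4 members (0.613%, 0.238 to 1.56) against 2.82% of all merged regions. It matched in 1.48% of regions called only with IL-4, which lies inside the members' interval. A share below the 2.82% was thus not particular to the members. The SP GC box was at 0.745% to 1.76% over the 8, the highest for lists of equal length. Without replicate 2 without IL-4, replicate 1 with IL-4 or replicate 2 with IL-4 it was at 0.972%, 1.12% and 0.963%. The interval held the 2.82% in the upper 50% and for lists of equal length, and in no other of the 8. Promoter shares also differed (9.65% of members, 19.4% of all merged regions), and their part in this was not tested. The STAT6-type motif, TTC and GAA with 4 bases between them, matched in 3.52% (2.36 to 5.23) of members. It matched in 5.84% of all merged regions and 13.1% of regions called only with IL-4, and in 2.29% to 4.38% over the 8. The interval held the 5.84% in the upper 50% (0.782 to 6.52) and for members at a single place (2.53 to 6.05), and in no other of the 8. It also held it in the 455 members that were not repeats (3.96%, 2.52 to 6.17), and repeat members were at 2.53%. KLF/SP (GGGCGTG) matched in 2.60% (1.63 to 4.13) against 3.24%, with 1.99% to 2.89% over the 8. The motif of GATA factors (letters AGATAAG) matched in 13 members (1.99%, 1.17 to 3.38) against 2.33%, with 0.763% (the upper 50% of each list) to 2.27%. ETS (CCGGAAGT) matched in 0.613% (0.238 to 1.56) against 0.985%, with 0.284% and 0.306% without replicate 1 or replicate 2 without IL-4 and none in the upper 50%. NRF1 (GCGCATGCG) matched in none of the 653 against 0.313%, and EGR (GCGTGGGCG) in none against 0.234%, with up to 0.271% for each over the 8. The Wilson interval for none of 653 reaches 0.585%.

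The side of the other motifs changed with the choice of regions, so no direction is read from them either. AP-1 (TGANTCA) matched in 48 members (7.35%, 5.59 to 9.61) against 12.9% of all merged regions and 12.03% of regions called only with IL-4. It was at 16.3% (15.4 to 17.1) without replicate 2 without IL-4, 5.75% without replicate 1 without IL-4, and 10.2% both without replicate 1 with IL-4 and for lists of equal length. TCF/LEF (CTTTGAA) matched in 2.91% (1.87 to 4.50) against 4.74% and 6.78%, but in 4.502% without replicate 2 without IL-4, 4.88% for lists of equal length and 5.34% in the upper 50%. Forkhead (TGTTTAC) matched in 24 members (3.68%, 2.48 to 5.41) against 2.52%, but in 2.48% without replicate 1 without IL-4, 2.41% without replicate 2 without IL-4 and 2.38% without replicate 1 with IL-4, and in 5.34% in the upper 50%. RUNX (TGTGGTT) matched in 8.27% (6.39 to 10.6) against 8.93%, and in 11.9% without replicate 2 without IL-4. NFAT (TGGAAAA) matched in 5.21% (3.75 to 7.19) against 4.45%, with 4.29% to 6.11% over the 8. CCAAT, the core of the NFY motif, matched in 24.3% (21.2 to 27.8) against 20.9%, with 20.87% for members at a single place and 34.4% in the upper 50%. Among the members it matched in 34.8% of repeats against 19.8% of the others. The E-box CAGCTG matched in 9.49% against 11.9%, but in 13.3% for lists of equal length and 14.5% in the upper 50%. The E-box of sequence CACCTG matched in 17.3% against 16.2%, with 14.5% in the upper 50% and 21.3% without replicate 1 with IL-4. ROR (AGGTCA) matched in 11.3% against 11.2%, with 9.94% to 14.3% over the 8. ETS core (AGGAAGT) matched in 8.58% against 9.50%, with 6.46% to 9.92%, and a BACH2/MAF motif (TGCTGA) in 15.0% against 16.3%, with 10.7% to 16.9%. A STAT palindrome of TTC and GAA with 3 bases between them matched in 8.58% against 8.47%, with 6.14% to 15.3%, the highest in the upper 50%. IRF (GAAANGAAA) matched in 2.60% against 2.84%, but in 5.34% in the upper 50%. The remaining motifs were rare. NF-κB (GGGANTTCC) matched in 0.613% against 1.26%, with 1.23% without replicate 2 without IL-4 and 1.53% in the upper 50%. CRE (TGACGTCA) matched in 0.459% against 0.553%, with 0.213% without replicate 1 without IL-4, 0.136% for lists of equal length and 0.763% in the upper 50%. The SMAD palindrome (GTCTAGAC) matched in 0.306% against 0.235%, with 0.186% without replicate 2 without IL-4, 0.148% without replicate 2 with IL-4 and none in the upper 50%. A variant of the CTCF core (AGGGGGCGC) matched in 1.07% against 1.03%, with 0.653% without replicate 2 without IL-4 and 1.56% without replicate 2 with IL-4. No motif without N was contained in another, though matches of different motifs can overlap in part.

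**Figure D5:**
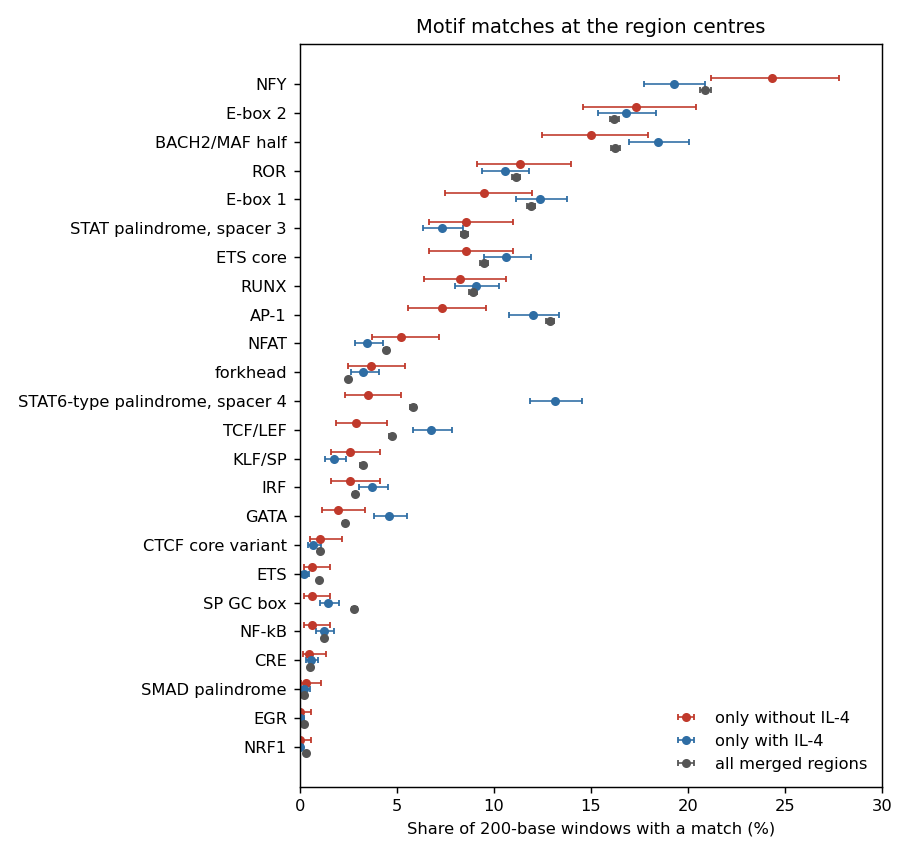
Share of 200-base windows (%) with a match to each of the 24 motifs, for members, regions called only with IL-4 and all merged regions, with 95% Wilson intervals as error bars; E-box 1 is CAGCTG and E-box 2 CACCTG. The AP-1 share is 7.35% in members and 12.9% in all merged regions, but 16.3% with replicate 2 without IL-4 left out, which is not drawn.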

How the data were processed

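The data are 4 ATAC-seq libraries, 2 without and 2 with IL-4, grouped by the sample labels. The authors sequenced on the BGISEQ-500 platform, mapped paired reads to mm10 with Bowtie2 2.2.5 and called peaks per library with MACS2 2.1.2; bedtools 2.16.2 is also listed in the submitters' processing notes. Caller settings, removal of duplicates and correction for transposase offset are not given in the sources used here, and their effect on peak positions and calls was not tested. Each deposited list has no header. From the values, column 4 was read as the −log10 q-value of the authors' caller, and column 5 as the height, a signal in overlapping fragments that was not scaled. Both were used only within a list.

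Peaks sharing 1 base were merged (pandas 2.3.3, numpy 2.4.6 and numba 0.67.0 under Python 3.11.15). The 176 regions off the assembled chromosomes, 2 of them with the pattern, were left out. Start sites and gene structures came from GENCODE vM21 (basic set), and sequences from GRCm38.p6. A promoter was a centre within 1 kb of any start site, taken before exon, intron and intergenic. Shares carry Wilson 95% intervals. The copy measure was the median number of exact genome matches of 7 words of 32 bases per 200-base window. Merging, sorting by library, distances to peaks, the copy measure and the motif search were tested on simulated lists and sequences. Annotation was not tested in this way.

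Regions named are the 12 members with the best rank in their weaker library, up to 4 per gene list, up to 10 genes with several members, the 3 widest, those at the rule's edge and the one nearest to Foxp3. The members and lists were chosen with earlier results of these data known; the repeat, copy and peak overlap counts were added after the data were seen. No test was run. Alternatives kept the upper 50% of each list, lists of equal length, a reciprocal overlap of 50%, each library left out, other distances and windows, and members at a single place. Sequences are shown for 8 members only.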

Additional observations from a re-analysis of the deposited data

How the results depend on the processing

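Peak lists hold no reads, so depth was unknown, and its part in the calls was not tested. The count of members was 738 with lists of equal length, 804 with a reciprocal overlap of 50% and 131 with the upper 50% of each list. Intervals cover counting error only. No paired analysis was possible because the result comes from no test. The cause of the shifts below was not tested, except where a cut removes weak peaks by construction.

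With the upper 50% of each list there were 131 regions, 16.0% of them within 1 kb of a start site, with a median width of 518 bases, a median weaker rank of 47.5%, 12.2% within 1 kb of a peak with IL-4, 7 listed genes, 25.95% repeats and a median of 5.34% over the 24 motif shares (3.22% as reported). Lists of equal length gave 49.1% in introns, a width of 384, a rank of 83.6%, 14.9% near a peak with IL-4 and 21.3% repeats. A reciprocal overlap of 50%, under which a peak with IL-4 may touch a member, gave 44.2% near a peak with IL-4, 348.5 bases and 89.7%. Members at a single place, chosen after seeing the data, gave 291.5 bases, 91.9%, 21.7% and 14.9% repeats. Within 2.5 kb of a start site lay 16.8%, and 5.67% within 1 kb of a coding one. The rank by height was 90.9%, 2.91% lay within 200 bases of a peak with IL-4, and the median motif share was 1.61% in windows of 100 bases and 6.51% in windows of 400.

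Leaving out 1 library, which loosens the rule, gave 1350 (without replicate 2 with IL-4) to 7507 regions (without replicate 2 without IL-4). It gave 2818 without replicate 1 without IL-4 and 2775 without replicate 1 with IL-4. Shares in introns ran from 46.2% to 50.9%, widths from 205 to 361 bases, ranks from 89.3% to 92.7%, shares near a peak with IL-4 from 15.2% to 22.4%, listed genes from 41 to 148 and repeats from 17.98% to 35.5%. Of 319 alternative values, 34 for the summaries above and 181 for single motifs stayed within the interval of the reported value or within 1.5 times a count, and 45 and 59 did not. Of the 24 motifs, 18 lay on the other side of their share in all merged regions under at least 1 of the 8 alternatives that kept the 200-base window.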
